A study of Mus musculus with 6 samples.

Results

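Of the 23367 gene entries measured in developing mouse gastrocnemius, 117 had their highest level at postnatal day 2 (PN2) and stood clear of every other library there. They were selected on the measured values themselves. A gene was taken when its PN2 level was at least 1 FPKM (fragments per kilobase of transcript scaled to the fragments on genes in the library, the authors' measure of level) and at least 1.6 times the largest level of the other 5 libraries. In all, 12279 entries reached 1 FPKM at PN2, so the 117 genes made up 0.953% of those that could qualify. No Y-linked gene and no entry whose symbol had turned into a date met these numbers. Since the rule used all 6 libraries, every level at PN2 is given below as a description with no test.

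The series followed the gastrocnemius, a fast hindlimb muscle, of wild type mice of the FVB strain from just before birth to adulthood. Polyadenylated RNA came from E18.5 embryos (several mice of both sexes, pooled), from PN2 males (several mice, pooled), from 2 separate males at PN14 (replicates 1 and 2), from 1 male at PN28 and from 1 adult male of 22 weeks. No group was treated or carried a mutation. PN14 is thus the only stage with a measured spread. Each library had a sequencing lane of its own. Lane, animal and stage therefore cannot be told apart outside PN14, nor lane and animal within it. Total counts on genes were 125402932 to 157868359 per library. These are whole muscles, in which fewer cells of a type and less RNA per cell cannot be told apart. The muscle genes used as a check (Des, Ckm, Acta1 and others) summed to 33403 to 119909 FPKM in every library, and none of them was a member.

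In the days after birth a mouse pup moves from a placental supply of glucose to milk, whose main fuel is fat, and it depends on its mother and littermates for warmth. In its muscles the primary and secondary fibres still contain embryonic and perinatal myosins, the motor nerves are being sorted and wrapped by Schwann cells, and surplus synapses are being removed. Genes of fat use, of cold response and of Schwann cell maturation, and the perinatal myosin itself, are each known from this window.

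The PN2 levels of the 117 genes ran from 1 to 4065 FPKM, with a median of 5.67, and rested on 146 to 3891513 counts. The excess over the next library was mostly modest. The median ratio to the largest other library was 1.82, 38 genes reached 2 times, 8 reached 3 times and 2 reached 5 times. For 82 genes that next library was E18.5, for 25 it was PN14 replicate 2, for 5 the adult, for 3 PN14 replicate 1 and for 2 PN28. Relative to PN2, the median member stood at 51.1% at E18.5, at 22.4% and 37.0% in replicates 1 and 2 of PN14, at 17.2% at PN28 and at 11.1% in adult muscle. By deposited FPKM, 99 members (84.6%) were higher at E18.5 than in the PN14 mean, as were 74.6% of genes with at least 1 FPKM at PN2, and 73 members (62.4%) had their lowest value in the adult, against 51.6%. With the TMM scaling described below the first count was 62 (53.0%, against 48.8%) and the second also 62 (53.0%, against 32.5%). In the adult, 20 members (17.1%) were at or under 0.1 FPKM, against 2.85% of these genes. By deposited FPKM, 18 members were lower at E18.5 than in the PN14 mean, and 13 of these lay below both PN14 mice.

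**Figure D1:**
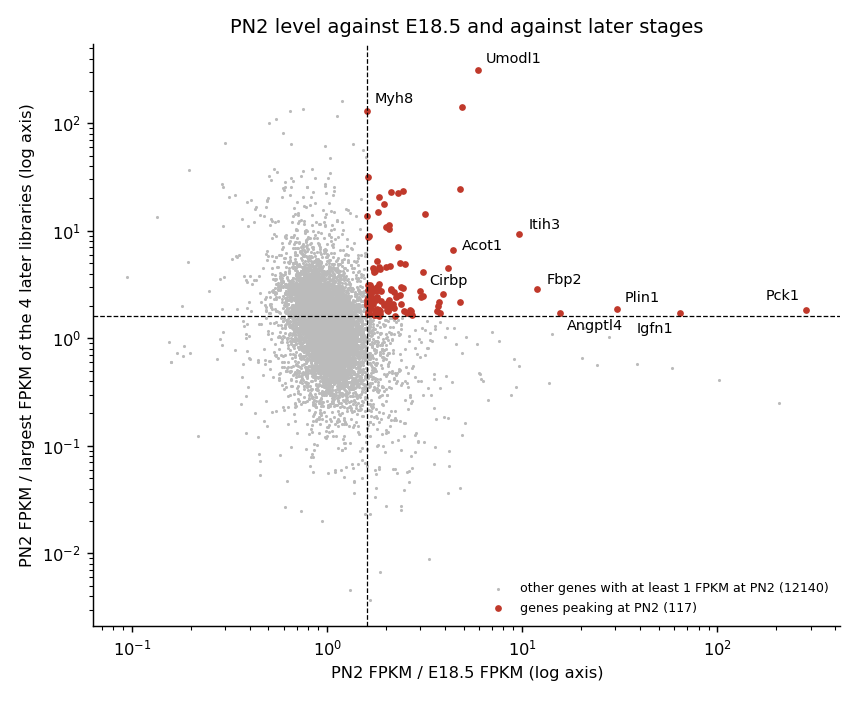
Each point is a gene with at least 1 FPKM at PN2, placed by its PN2 level relative to E18.5 (horizontal, log axis) and relative to the highest of the 4 later libraries (vertical, log axis), with dashed lines at 1.6. The 117 selected genes (red) fill the upper right corner, with Myh8 and Umodl1 far above the line for later stages and Pck1 and Igfn1 far to the right of the line for E18.5.

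The same numbers applied to each library in turn gave 360 genes for E18.5 and 296 for the adult, the ends of the series, and 12, 54 and 12 for PN14 replicate 1, PN14 replicate 2 and PN28. Genes nearest the threshold show how narrow it was. Inside it, Scube1 and Susd4 stood at 1.6 times the next library, followed by Pmaip1 (1.6), Tas1r1 (1.61) and Myh8 (1.61). Outside it, Hmga1 and Wnt10b reached 1.59, and Vwc2, Akap9 and Epor reached 1.58.

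FPKM divides by all fragments on genes, and abundant adult muscle genes take a larger share of them in the later libraries: the list of adult fast contractile and metabolic genes summed to 26919 FPKM at E18.5, 28851 at PN2 and 112330 to 152244 afterwards. The scaling of TMM (trimmed mean of M-values), which compares libraries through the bulk of their genes, gave factors of 1.45 for both E18.5 and PN2, 0.841 and 1.01 for the PN14 pair, 0.785 for PN28 and 0.714 for the adult. Dividing by these leaves the ratio of PN2 to E18.5 as it was and lowers the ratio of PN2 to every later library. Under it 107 of the 117 members were still highest at PN2 and 60 kept a ratio of at least 1.6, of which 54 also kept 1 FPKM; the median ratio was 1.61 (range 0.816 to 6.43). The 10 that were no longer highest at PN2 were Lrrn4cl, 1700011I03Rik, Rps6ka5, Carns1, Pck1, Nudt11, Igfn1, Nudt10, Ccl24 and Trafd1. Of the genes named below, the following fell under 1.6 with scaled ratios of 1.26 for Egr1, 1.27 for Egr2, 1.34 for Deptor, 1.33 for Mfap3l, 1.37 for St8sia2, 1.41 for Tspan12, 1.43 for Apln, 1.58 for B3galt2, 1.26 for Slc25a34 and 1.24 for Tmem82. So did Dhh (1.18), Gjc3 (1.18), Aatk (1.15), Gal3st1 (1.45), Stat5a (1.20), Clec4n (1.28) and Nnmt (1.55). Among the genes nearest the threshold, Tas1r1 fell to 1.22, Scube1 to 1.47 and Susd4 to 1.41. For several others the scaled ratio stands beside the gene.

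**Figure D2:**
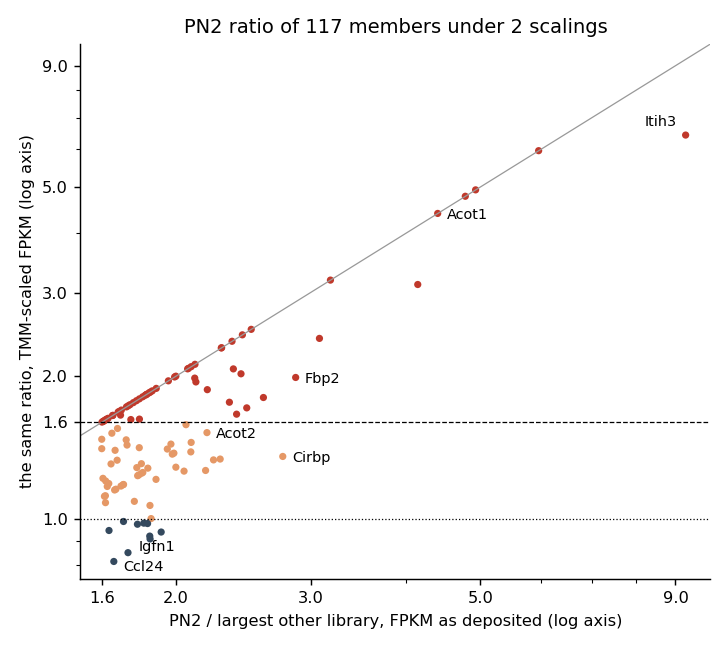
Ratio of PN2 to the largest other library for the 117 members, from FPKM as deposited (horizontal, log axis) and after TMM scaling (vertical, log axis), with the diagonal of equal ratios. Red points keep at least 1.6 (dashed line), orange points lie between 1 and 1.6, and the 10 dark points fall to 1 (dotted line) or below. Acot1 lies on the diagonal, while Cirbp drops from 2.76 to 1.36.

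Genes that handle fat and fuel formed a group by known role, in which Carns1, for carnosine synthesis, was also placed. The grouping of 65 members into 7 roles was made with their values known, so counts within a role are descriptions. The fuel group held 12 genes with PN2 levels of up to 109 FPKM. Those named here covered the uptake and storage of fat (Angptl4, Plin1), its entry into mitochondria (Cpt1a), the release of fatty acids from coenzyme A (Acot1, Acot2), glucose synthesis (Pck1, Fbp2), glycogen (Ppp1r3d), a mitochondrial carrier (Slc25a34), carnosine synthesis (Carns1) and a transcription factor (Klf11). In 8 of the 12 the level at E18.5 was below the PN14 mean, and over all members this was so in 18 of 117; after TMM scaling the counts were 10 of 12 and 55 of 117. After TMM scaling 10 of the 12 were still highest at PN2, and 5 kept a ratio of 1.6.

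Fbp2, which encodes the muscle form of fructose-1,6-bisphosphatase, an enzyme of the route from lactate to glycogen, was the most abundant of them (chr13:62938244-62959760, minus strand, mm9). It measured 9.14 FPKM at E18.5, 109 at PN2, 23.7 and 38.1 in both PN14 mice, 16.6 at PN28 and 9.73 in adult muscle. PN2 stood far above the rest, both PN14 mice came next, and E18.5 and the adult were lowest, alike by deposited FPKM and at 6.29 and 13.6 after TMM scaling. PN2 exceeded E18.5 by 11.9 times and the next library by 2.87 times (1.99 after TMM scaling).

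Angptl4 encodes a secreted inhibitor of lipoprotein lipase that responds to fasting and fatty acids (chr17:33910695-33918520, minus strand, mm9). Its FPKM was 3.03 at E18.5, 47.0 at PN2, 4.18 and 27.6 in replicates 1 and 2 of PN14, 1.41 at PN28 and 1.05 in adult muscle. The 2 mice of PN14 were far apart, replicate 1 lying near E18.5 and replicate 2 nearer to PN2, so its ratio to the next library (1.71, and 1.18 after TMM scaling) rested on a single PN14 mouse. Cpt1a, the liver form of the enzyme that passes fatty acids into mitochondria, measured 4.95, 18.4, 5.12, 9.26, 3.09 and 1.87 FPKM in the same order of libraries. It too was highest at PN2 and next in PN14 replicate 2, with a ratio of 1.99 (1.38 scaled).

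Acot1 and Acot2 encode acyl-CoA thioesterases, of the cytosol and of mitochondria, which release free fatty acids from coenzyme A. They are direct neighbours on chromosome 12, Acot2 at chr12:85328811-85334823 and Acot1 at chr12:85350448-85358621, both on the plus strand of mm9 with 15625 bases between them. Acot1 measured 4.26 FPKM at E18.5, 18.7 at PN2, 0.990 and 2.83 at PN14, 0.790 at PN28 and 0.570 in adult muscle, and Acot2 measured 2.98, 14.2, 3.91, 6.47, 2.86 and 3.50. The neighbours shared the PN2 peak and differed afterwards: Acot1 was below its E18.5 level in all 4 later libraries, while Acot2 was near or above it. The ratio to the next library was 4.4 for Acot1 (4.4 scaled) and 2.20 for Acot2 (1.52 scaled). Their coding sequences were 85.5% identical, so some fragments could have been assigned to the wrong one of them.

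The 150 bases before the start of both genes are printed here to show how far the sequence in front of these neighbours differs, together with those of Fbp2 and Cirbp, 2 further members with large PN2 excess. They are from RefSeq on GRCm38.p6, 5′ to 3′ on the gene's strand, at chr12:83987711-83987860 (Acot2), chr12:84009352-84009501 (Acot1), chr13:62858401-62858550 (Fbp2, minus strand) and chr10:80167689-80167838 (Cirbp). Capitals mark matches to the motifs searched on either strand.
Acot2: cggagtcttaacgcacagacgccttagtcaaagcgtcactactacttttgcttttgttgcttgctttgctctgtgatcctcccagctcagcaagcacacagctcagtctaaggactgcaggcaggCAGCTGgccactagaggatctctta
Acot1: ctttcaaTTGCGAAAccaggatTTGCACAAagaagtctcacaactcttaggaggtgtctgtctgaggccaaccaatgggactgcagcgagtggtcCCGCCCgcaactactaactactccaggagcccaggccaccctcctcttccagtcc
Fbp2: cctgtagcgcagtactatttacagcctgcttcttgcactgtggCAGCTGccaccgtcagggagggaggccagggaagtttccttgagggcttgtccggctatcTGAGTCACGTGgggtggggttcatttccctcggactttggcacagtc
Cirbp: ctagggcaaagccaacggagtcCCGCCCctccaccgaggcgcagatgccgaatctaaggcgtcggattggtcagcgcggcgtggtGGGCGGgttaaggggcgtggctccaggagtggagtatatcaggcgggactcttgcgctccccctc
In front of Acot1 the capitals mark 2 matches to the C/EBP motif TTGCNNAA, at -143 and -128 from the start, and a GC box (GGGCGG) on the other strand at -55. In front of Acot2 they mark an E-box, CAGCTG, at -25. The Fbp2 stretch holds CAGCTG at -107 and, overlapping each other, the AP-1 motif TGANTCA at -47 and the E-box CACGTG at -42. The Cirbp stretch, from 1 of 2 promoters listed for that gene, holds 2 GC boxes, at -128 and -65.

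Promoters of 83 of the 117 members were in the RefSeq table, each covering 250 bases before to 50 after the start, and 11 motifs were searched in them on both strands. TTGCNNAA was found in 17 of the 83 (20.5%), against 12.2% of all 27025 promoters and 9.67% of those of genes with at least 1 FPKM at PN2. CAGCTG was found in 27.7%, against 18.3% and 18.2%, and the Runx motif TGTGGT in 24.1%, against 18.9% and 14.5%. GGGCGG was found in 62.7%, between the 38.2% of all promoters and the 70.2% of those expressed. The letters AGAACA, only a part of a glucocorticoid element, were in 9.64% (21.3% and 14.4%). AGGTCA, only a part of a nuclear receptor element, was in 12% (18.1% and 14.5%) and CACGTG in 13.3% (8.09% and 11.9%). TATAAA was in 12% (15.7% and 8.82%) and TGANTCA in 8.43% (8.97% and 5.96%). The cAMP response element TGACGTCA and its variant TGACGCAA were in 0 of the 83, with 2.03% and 0.562% of all promoters. These shares count letters in a window and were not tested.

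Pck1 and Plin1, the remaining fuel genes named by the lists, are abundant in fat cells: Pck1 encodes the cytosolic phosphoenolpyruvate carboxykinase, and Plin1 coats the lipid droplet. Pck1 measured 0.020 FPKM at E18.5 (9 counts), 5.72 at PN2, 1.22 and 1.18 at PN14, 3.15 at PN28 and 1.65 in adult muscle. Plin1 measured 0.300, 9.17, 1.34, 0.940, 4.94 and 3.90. Both were near 0 at E18.5, highest at PN2, low at PN14 and higher again at PN28. After TMM scaling PN28 was close to PN2 in both, with a ratio of PN2 to PN28 of 0.982 for Pck1 (1.82 as deposited) and 1.004 for Plin1 (1.86 as deposited). Other fat genes differed among themselves between E18.5 and PN2. Adipoq (adiponectin) measured 1.06 FPKM at E18.5, 22.0 at PN2, 4.03 and 2.82 at PN14, 17.5 at PN28 and 12.8 in adult muscle, while Fabp4 went from 372 to 424 FPKM between E18.5 and PN2, Pparg from 3.23 to 4.06, Scd1 from 6.54 to 5.46 and Dgat2 from 13 to 8.78. The fat list as a whole summed to 1391, 1754, 2129, 2052, 2140 and 1489 FPKM. Of its 19 genes with at least 1 FPKM at PN2, 9 were highest at PN2 by deposited FPKM, where 29.1% of all such genes were. The part of fat tissue in the Pck1 and Plin1 values was not tested.

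The list of fatty acid oxidation, ketone and fasting genes contained 5 members, the most of any list, among them Angptl4, Cpt1a, Acot1 and Acot2. Of its 22 genes with at least 1 FPKM at PN2, 8 were highest at PN2. The list as a whole did not peak there, since its sum was 727 FPKM at E18.5, 1831 at PN2, 2639 and 2931 at PN14, 1589 at PN28 and 1213 in adult muscle. Pdk4, Ucp3 and Fabp3, which handle the same fuel, were lower at PN2 than in both PN14 mice: Fabp3, the fatty acid binding protein of muscle, measured 543 FPKM at PN2 and 1159 and 1154 at PN14.

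The cold-inducible RNA-binding proteins Cirbp and Rbm3 were both members. They are small related proteins that bind RNA and are made more at mildly lowered temperature. Cirbp (chr10:79628730-79635531, plus strand, mm9) measured 24.2 FPKM at E18.5, 72.2 at PN2, 20.8 and 26.0 at PN14, 17.4 at PN28 and 26.2 in adult muscle. Rbm3 (chrX:7716101-7723006, minus strand, mm9) measured 162, 279, 74.7, 126, 64.2 and 93.4. Cirbp lay between 17.4 and 26.2 FPKM outside PN2, whereas Rbm3 already stood at 162 before birth, and the adult was above PN28 for both. Their ratios to the next library were 2.76 and 1.72, and 1.36 and 1.47 after TMM scaling, so both were still highest at PN2 and neither kept 1.6.

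Schwann cell and nerve genes made up a further group of 12, with PN2 levels of 2.25 to 24.1 FPKM. Egr2 and Pou3f1 encode transcription factors of the myelinating and promyelinating Schwann cell, and Dhh encodes a signal from Schwann cells to the sheath of the nerve. Gjc3 encodes a gap junction protein, Cadm4 an adhesion molecule facing the axon, Gal3st1 the enzyme of sulfatide synthesis, and Erbb4 a neuregulin receptor. Aatk, Ttyh1, Kcnj10 and Itgb8 belonged to the group as well.

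Cadm4 measured 14.8 FPKM at E18.5, 24.1 at PN2, 5.39 and 14.2 in both PN14 mice, 4.97 at PN28 and 5.72 in adult muscle. Kcnj10, a potassium channel of glia, measured 0.630, 2.61, 0.190, 0.580, 0.060 and 0.030. PN2 was highest for both, and PN14 replicate 2 was above replicate 1 by more than 2 times in each. Egr2 measured 1.18, 4.44, 2.03, 1.82, 0.770 and 0.740 and was the exception, with nearly equal PN14 mice. It is also in the lists of tendon genes and of immediate early genes, and the cells its RNA came from were not tested. Pou3f1 measured 1.83, 4.30, 0.840, 1.69, 0.380 and 0.350 FPKM.

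In 11 of these 12 genes PN14 replicate 2 was at least 1.6 times replicate 1. The same held for 61 of the 115 members above 0 in both mice, and for 1246 of 12135 other genes with at least 1 FPKM at PN2. The Schwann cell and myelin list, fixed apart from the members, summed to 245 FPKM at E18.5, 636 at PN2, 347 and 1250 in replicates 1 and 2 of PN14, 299 at PN28 and 242 in adult muscle. Its abundant myelin genes were highest in PN14 replicate 2 and not at PN2, with Mbp at 233 FPKM there, 57.9 in replicate 1 and 93.1 at PN2. Of its 13 genes with at least 1 FPKM at PN2, 4 were highest at PN2, among them the member Egr2 and the non-members Mag and Sox10. The list sum was higher in PN14 replicate 2 than in replicate 1, as 11 of the 12 members were, but unlike them it was higher there than at PN2. The part of the amount of nerve in these values was not tested. After TMM scaling all 12 were still highest at PN2 and 5 kept 1.6; Cadm4 went from 1.63 to 1.17, and Kcnj10 from 4.14 to 3.12.

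**Figure D3:**
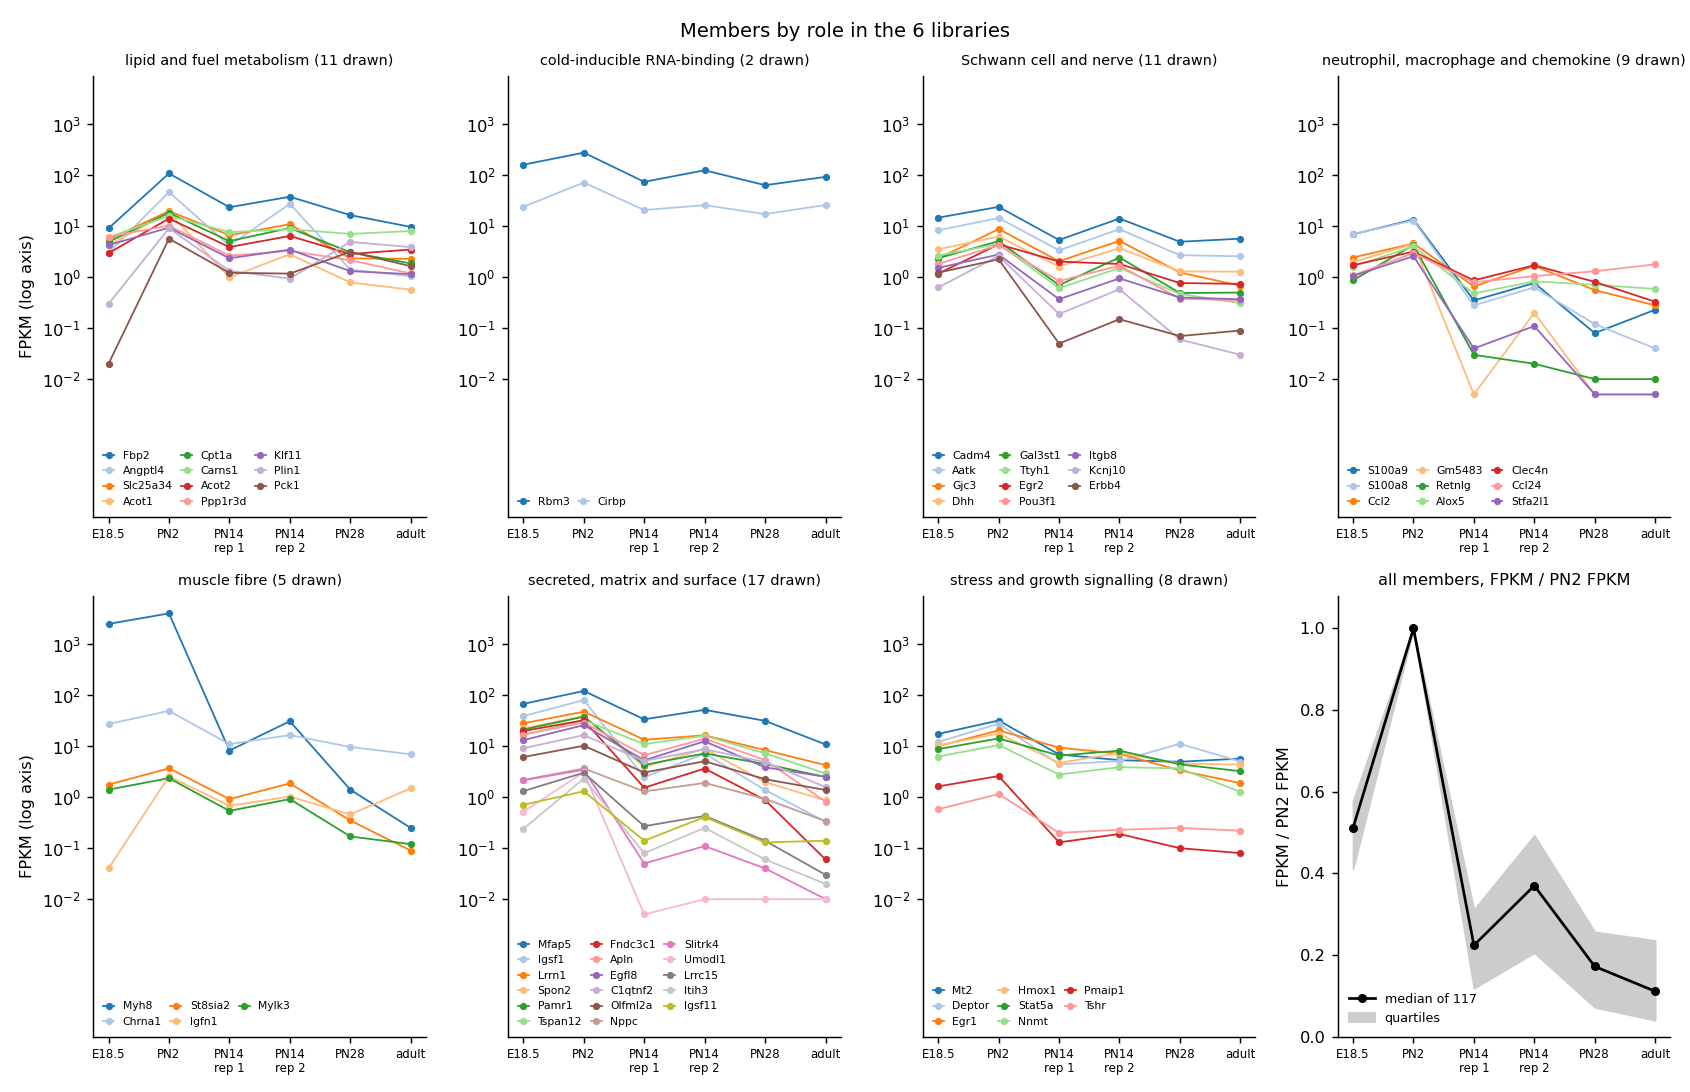
FPKM (log axis) of 63 members in 7 role groups across the 6 libraries, with values under 0.005 FPKM drawn at 0.005, and, lower right, the median and quartiles of all 117 members relative to their PN2 level (linear axis). Pck1 and Plin1 start low at E18.5, and S100a8 and S100a9 are under 1 FPKM after PN2. The Schwann cell and nerve genes drawn other than Egr2 are higher in PN14 replicate 2 than in replicate 1.

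Genes of neutrophils, macrophages and chemokines made up 9 members with PN2 levels of 2.59 to 13.6 FPKM. S100a8 and S100a9 encode the 2 chains of calprotectin, the main cytosolic protein of neutrophils, and lie on chromosome 3 at 22598 bases from each other in mm9 (chr3:90472993-90473956, plus strand, and chr3:90496554-90499643, minus strand). S100a8 measured 7.02 FPKM at E18.5, 13 at PN2, 0.280 and 0.630 at PN14, 0.120 at PN28 and 0.040 in adult muscle. S100a9 measured 6.95, 13.6, 0.350, 0.770, 0.080 and 0.230. The chains kept near-equal levels at E18.5 and PN2, at ratios of PN2 to E18.5 of 1.85 and 1.96, and both were under 1 FPKM in every later library. The 150 bases before their starts are shown because the neighbours move together, from RefSeq on GRCm38.p6 at chr3:90668921-90669070 (S100a8) and chr3:90695722-90695871 (S100a9, minus strand), with motif matches in capitals.
S100a8: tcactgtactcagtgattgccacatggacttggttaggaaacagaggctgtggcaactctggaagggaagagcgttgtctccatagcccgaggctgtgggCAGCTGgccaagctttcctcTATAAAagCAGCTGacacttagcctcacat
S100a9: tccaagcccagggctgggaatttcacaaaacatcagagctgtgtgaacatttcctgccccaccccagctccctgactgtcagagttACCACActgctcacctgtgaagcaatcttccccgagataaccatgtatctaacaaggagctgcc
The S100a8 stretch has a TATA box, TATAAA, at -30 between 2 copies of CAGCTG at -50 and -22, and the S100a9 stretch has a Runx match on the other strand at -64.

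Retnlg, a resistin-like protein of neutrophils, had 76 counts at E18.5, 372 at PN2, 2 in each PN14 mouse and 1 at PN28 and in the adult (0.870, 4.29, 0.030, 0.020, 0.010 and 0.010 FPKM). Stfa2l1 and Gm5483, stefin-like inhibitors of cysteine proteases that lie 22264 bases apart on chromosome 16, measured 1.06 and 1.98 FPKM at E18.5 and 2.59 and 4.54 at PN2. Both were at 0 counts at PN28 and in the adult. Their coding sequences were 77.9% identical, which leaves their separate values uncertain. Alox5, Clec4n, Ccl2 and Ccl24 completed the group. Ccl24 differed from the others in reaching 1.79 FPKM in the adult, and was highest there after TMM scaling (ratio of PN2 to adult 0.816). Ccl2 was the 1 member in the macrophage and monocyte list, whose sum was lower at PN2 (156 FPKM) than at E18.5 (191 FPKM). Of that list's 14 genes with at least 1 FPKM at PN2, 4 were highest at PN2, where 29.1% of all such genes were.

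The neutrophil and bone marrow list summed to 22.2 FPKM at E18.5, 38.9 at PN2, 0.990 and 1.78 at PN14, 0.620 at PN28 and 0.750 in adult muscle. Of its 6 genes with at least 1 FPKM at PN2, 5 were highest there, where 29.1% of all such genes were. The 3 members among them were selected for that peak. Most of the rise of the sum from E18.5 to PN2 lay in these members, S100a8, S100a9 and Retnlg. They measured 7.02, 6.95 and 0.870 FPKM at E18.5 and 13, 13.6 and 4.29 at PN2. Among granule genes of the list, Ngp measured 1.88 FPKM at E18.5 and 1.83 at PN2, and Ctsg 1.14 and 0.940, both lower at PN2. In the same order Camp measured 1.41 and 1.52, Ltf 0.600 and 0.840, Mpo 0.110 and 0.340, and Elane 0.030 and 0.060. Whether these RNAs came from neutrophils in vessels, in the muscle or in marrow taken along was not tested.

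Among genes of the muscle fibre, Myh8, the perinatal myosin heavy chain, had the highest level of all members (chr11:67090626-67122136, plus strand, mm9). It measured 2530 FPKM at E18.5, 4065 at PN2, 8.25 and 31.1 at PN14, 1.41 at PN28 and 0.25 in adult muscle. It was high at both perinatal stages and 207 times lower in the PN14 mean than at PN2, and the 2 PN14 mice differed 3.76 times from each other. Chrna1, the alpha subunit of the muscle acetylcholine receptor, measured 27.4, 49.6, 11.0, 16.6, 9.72 and 6.98 FPKM. St8sia2, which adds polysialic acid to the adhesion molecule NCAM, measured 1.77, 3.70, 0.920, 1.87, 0.350 and 0.090, and Mylk3, the cardiac myosin light chain kinase, 1.41, 2.37, 0.540, 0.920, 0.170 and 0.120. Igfn1, a giant protein of the Z-disc, went against them with 0.040 FPKM at E18.5, 2.58 at PN2, 0.680 and 1.03 at PN14, 0.460 at PN28 and 1.49 in adult muscle, and under TMM scaling the adult was higher than PN2 (ratio 0.851). Of the 20 embryonic and neonatal contractile genes, 5 were highest at PN2 and 3 were members. Among all genes with at least 1 FPKM at PN2, 29.1% were highest there. The list as a whole did not peak at PN2, with a sum of 13284 FPKM at E18.5 and 10189 at PN2.

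The largest group, of 17 genes, encodes secreted, matrix and surface proteins. For 16 of the 17 the next library was E18.5, and after TMM scaling all 17 were still highest at PN2 and 11 kept 1.6. Itih3, which encodes a heavy chain of the inter-alpha-trypsin inhibitors that bind hyaluronan, had the largest ratio of all members, 9.28 (6.43 scaled). Its FPKM was 0.240 at E18.5, 2.32 at PN2, 0.080 and 0.25 at PN14, 0.060 at PN28 and 0.020 in adult muscle, on 1008 counts at PN2. Umodl1, a uromodulin-like surface protein, was second, at 0.520 FPKM at E18.5, 3.10 at PN2 and at most 0.010 later. For both, PN2 was the only library above 1 FPKM.

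Abundant members of the group had smaller ratios. Mfap5, a microfibril protein of elastic tissue, measured 68.1 FPKM at E18.5, 122 at PN2, 33.9 and 52.0 at PN14, 31.6 at PN28 and 10.9 in adult muscle. Igsf1, an immunoglobulin-like surface protein, measured 39.1, 81.0, 2.48, 7.18, 1.39 and 0.330. Apln, the peptide ligand apelin, measured 17.0, 29.3, 6.68, 14.2, 5.35 and 0.820. Each was lowest in the adult, Igsf1 most steeply. Fndc3c1 (19.9, 32.5, 1.54, 3.66, 0.880 and 0.060 FPKM) followed the course of Igsf1. Spon2, Pamr1, Lrrn1 and Tspan12 stood between 32.6 and 47.9 FPKM at PN2 and between 16.7 and 28.2 at E18.5.

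In the group of stress and growth signalling (8 genes, all with E18.5 as the next library), Egr1, an immediate early transcription factor, measured 10.03 FPKM at E18.5, 20.6 at PN2, 9.43 and 7.14 at PN14, 3.36 at PN28 and 1.89 in adult muscle. Mt2, a metallothionein that binds zinc, measured 17.5, 32.1, 6.92, 5.35, 4.97 and 5.74. Deptor, an inhibitor of mTOR, measured 12.2, 27.8, 4.42, 5.13, 11.2 and 5.01, with a second and lower maximum at PN28. In contrast to the nerve genes, none of the 8 was 1.6 times higher in PN14 replicate 2 than in replicate 1. Hmox1, Stat5a, Nnmt, Pmaip1 and Tshr ranged from 1.16 to 17.8 FPKM at PN2.

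The other 52 members had no common role and PN2 levels of 1 to 242 FPKM (median 3.88). The highest was 1110059M19Rik, an X-linked gene of unassigned function here, at 114 FPKM at E18.5, 242 at PN2, 0.640 and 10.6 at PN14, 0.120 at PN28 and 0.170 in adult muscle. Its PN14 mice differed 16.5 times from each other. Crip3, a LIM domain protein, measured 1.84, 5.67, 0.400, 1.37, 0.260 and 1.16 FPKM (ratio 3.08, and 2.40 scaled). Qpct, Ephb6, Mfap3l and B3galt2 had ratios of 2.06 to 2.38, and Gatsl2 measured 51.0 FPKM at PN2 and 27.4 at E18.5.

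By position, 111 members had mm9 coordinates in GENCODE M1, 109 of them protein coding. Besides the pairs above, 3 more pairs of members lay within 200 kb: Tmem82 and Slc25a34 on chromosome 4 with 191 bases between them, Fam174b and St8sia2 on chromosome 7, and Nudt10 and Nudt11 on X. Tmem82 measured 0.690, 1.70, 0.380, 0.950, 0.1 and 0.090 FPKM and followed Slc25a34, a mitochondrial carrier, at 5.47, 19.9, 6.67, 11.0, 2.34 and 2.30. Nudt10 and Nudt11 had 99.6% identical coding sequences, so that their values cannot be held apart. The X chromosome carried 9 members (7.69%), against 3.48% of genes with at least 1 FPKM at PN2. E18.5 included both sexes and the other libraries only males, and the part of sex was not tested.

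The PN14 mice were the only measure of spread, and both entered the rule, so their difference is given as a description. Their libraries also ran in separate lanes. Replicate 2 was higher in 105 of 115 members that were above 0 in both (91.3%), by a median of 1.65 times, and 61 members (53.0%) differed at least 1.6 times, all of them higher in replicate 2. Among 12135 other genes with at least 1 FPKM at PN2, 84.0% were higher in replicate 2, by a median of 1.20 times, and 11.2% differed 1.6 times. After TMM scaling the other genes were balanced (49.5% higher in replicate 2, median 0.998), while 94 of the members (81.7%) were still higher in replicate 2, by a median of 1.38 times. For these genes, PN14 replicate 2 thus lay nearer to PN2 than replicate 1 did. The 1.6 times that selected the members is a difference that 53.0% of them also showed between 2 mice of 1 age by deposited FPKM, and 40.0% after TMM scaling (6.96% of other genes).

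**Figure D4:**
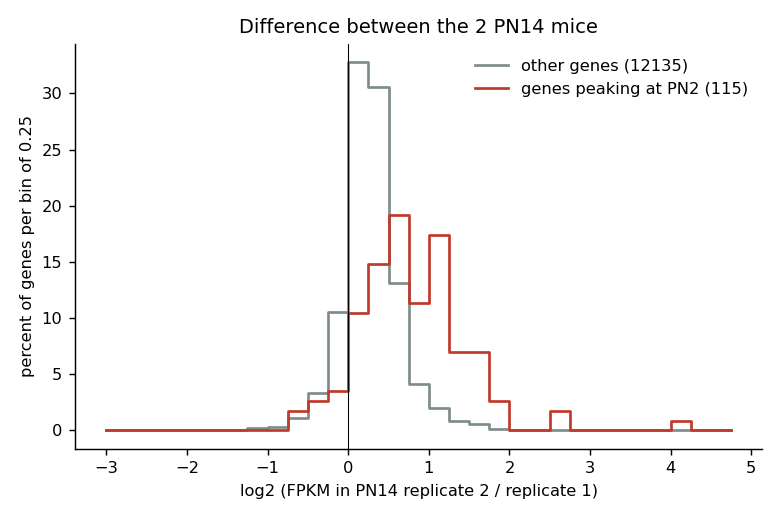
Distribution over genes of the log2 ratio of PN14 replicate 2 to replicate 1, from FPKM as deposited, as percent of genes per bin of 0.25. The members (red, 115 genes above 0 in both mice) lie further right than the other genes (grey, 12135), with medians of 1.65 and 1.20 times.

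Comparisons that leave out PN2 describe how the members moved between the other stages. The rule also used the E18.5, PN14, PN28 and adult levels, so the shares of members below are descriptions of selected genes. edgeR's quasi-likelihood test was run on the counts of all genes in 1 fit, and a gene was called at a Benjamini-Hochberg adjusted p under 0.05 over 16882 genes and a change of at least 1 on the log2 scale. All 117 members passed the filter on low counts. From E18.5 to PN14, 33 members were called (28.2%), close to the 30.9% of all genes. Of these, 11 rose and 22 fell, where 15.1% of all genes rose and 15.7% fell. The median log2 change was -0.06 over the members and -0.020 over all genes. With library size alone in place of TMM the counts were 5 up and 38 down, where 7.24% of all genes rose and 32.7% fell.

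The 11 that rose included 7 of the 12 genes placed in the fuel group, where 15.1% of all genes rose. These 7 were Pck1, Plin1, Fbp2, Acot2, Slc25a34, Cpt1a and Carns1, the last of them for carnosine synthesis. The others were Igfn1, Egr2, Nudt10 and 4930451C15Rik. Pck1 rose by a log2 change of 6.40 ± 0.419 (SE, adjusted p = 0.00132), from 9 counts at E18.5. Fbp2 rose by 2.39 ± 0.256 (adjusted p = 0.00269) and Igfn1 by 5.09 ± 0.323 (adjusted p = 0.0013). Acot2 rose by 1.43 ± 0.272 (adjusted p = 0.0107) while its neighbour Acot1 was not called, at -0.55 ± 0.488 (adjusted p = 0.40). Angptl4, at 2.96 ± 0.997, missed the threshold with an adjusted p of 0.0577, the gene whose PN14 mice differed most among the fuel genes. In the whole fatty acid list 14 of 24 genes rose and 2 fell.

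The 22 that fell included 5 of the 9 genes of neutrophils, macrophages and chemokines and 7 of the 17 secreted and surface genes, where 15.7% of all genes fell. Those 5 were S100a8, S100a9, Retnlg, Stfa2l1 and Gm5483, while Alox5, Ccl2, Clec4n and Ccl24 were not called. Myh8 fell by 6.42 ± 0.979 on the log2 scale (adjusted p = 0.00597), Umodl1 by 5.99 ± 0.424 (adjusted p = 0.00149) and Slitrk4, a synaptic adhesion protein, by 4.14 ± 0.428 (adjusted p = 0.00256). S100a8 fell by 3.28 ± 0.451 (adjusted p = 0.0047) and S100a9 by 2.99 ± 0.431 (adjusted p = 0.00516). Retnlg was called too, and since it had 4 counts in the PN14 pair together its size is given from counts: E18.5 was 21.4 times PN14 after TMM scaling, with a 95% exact interval of 8.01 to 80.4 that covers counting error only. In the neutrophil list 13 of the 14 genes tested fell. Of the members grouped as Schwann cell and nerve genes, Egr2 rose, Erbb4 fell by 3.03 ± 0.534 (adjusted p = 0.00863) and the other 10 were not called. In the Schwann cell and myelin list, which does not hold Erbb4, 9 of 14 rose and 1 fell.

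**Figure D5:**
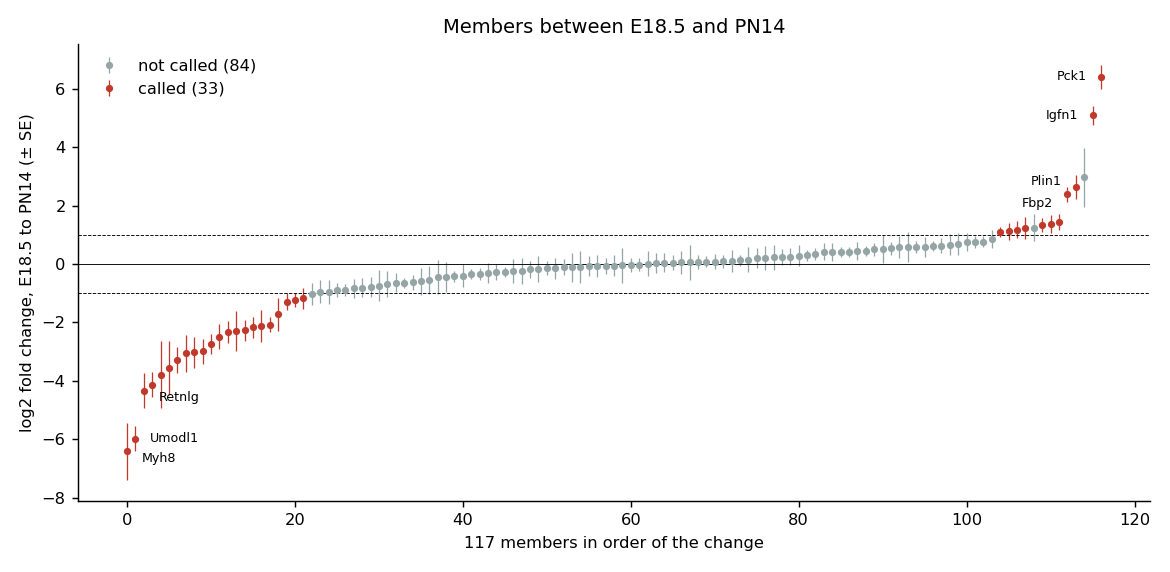
Log2 fold change from E18.5 to PN14 with its standard error (edgeR's quasi-likelihood fit) for the 117 members in order of size, with the called genes in red and dashed lines at -1 and 1. The 11 called genes at the right are led by Pck1 and Igfn1 and the 22 at the left by Myh8 and Umodl1.

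After PN14 the test called no member. From PN14 to PN28 it called 0 of 117 (0.0178% of all genes), with 35 members (29.9%) at an unadjusted p under 0.05, against 8.41% of all genes, and 8 members were called by DESeq2's Wald test, which called 0.800% of all genes. From PN28 to the adult it again called 0 (0.521% of all genes), with 24 (20.5%) at an unadjusted p under 0.05, against 18.3% of all genes, and 11 by DESeq2, which called 4.79% of all genes. With 1 animal a stage and a single PN14 pair for the spread, a count of 0 here does not show that levels stayed as they were. The member shares here also come from libraries that the rule used. Counted without a test, on TMM-scaled FPKM plus 0.1, 22 members were at least 2 times lower at PN28 than in the PN14 mean and 3 at least 2 times higher, together 25 of 117, where 2.41% of genes with at least 1 FPKM at PN2 differed by that much. That count was 38 without PN14 replicate 1 and 15 without replicate 2. From E18.5 to PN14 the same measure gave 12 members higher and 23 lower, against 30.0% of genes in either direction.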

How the data were processed

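Polyadenylated RNA of 6 libraries was compared. Per the methods and labels, the authors aligned paired reads to mm9 with TopHat2 2.0.5 and assigned fragments to RefSeq genes with RSEM. The deposited expected counts (whole numbers here) are not normalized, and the deposited FPKM values, made by the authors to 2 decimals, are per gene length and library total. The 117 members were found on FPKM. Members, lists, roles and tests were chosen with earlier results of these data known. Counts of the whole table were rounded and fitted in R 4.3.3 with edgeR 4.0.16 (TMM, filterByExpr, quasi-likelihood test, 5 stages, 1 residual degree of freedom, prior 4.86, biological coefficient of variation 0.188). Tested on simulated data for E18.5 to PN14 (16882 genes, 200 changed), it recovered 11 of 67 genes changed 2-fold, 67 of 67 at 4-fold and 66 of 66 at 8-fold, with 5 false among 149 calls. A count of 3 was taken as the floor.

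Members named were those with the largest ratios (15 with at least 5 FPKM), the highest PN2 levels (15), those in fixed gene lists, the 4 largest called changes each way, those nearest the threshold, and neighbours within 200 kb; those named only in a role group were chosen after their values were seen. Alternatives were DESeq2 1.42.0, edgeR's exact test, other scalings, filters, ratios and pseudocounts, and either PN14 replicate left out. Coordinates are from GENCODE M1 (mm9) and promoters from RefSeq (GRCm38.p6). Splicing was not analysed here, and a few genes are not reported here.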

Additional observations from a re-analysis of the deposited data

How the results depend on the processing

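The number of members depended on scaling and thresholds: 54 genes met the rule on TMM-scaled FPKM and 55 with DESeq2's size factors, 407 at a ratio of 1.3, 38 at a ratio of 2, 63 at a minimum of 5 FPKM, and 4478 when PN2 was compared with the 4 later libraries only; leaving out either PN14 replicate gave 119 to 162. From E18.5 to PN14, between 25 and 43 members were called under all alternatives run, against 33. From PN14 to PN28, where the quasi-likelihood test called 0, library size alone gave 16 (1.55% of all genes called), no filter 4 (0.286%), DESeq2 8 (0.800%) and edgeR's exact test 12 (1.43%). From PN28 to the adult the same 4 gave 13 (5.14%), 9 (4.26%), 11 (4.79%) and 16 (6.79%). The 2-fold counts without a test went to 16 (E18.5 to PN14) and 9 (PN14 to PN28) with a pseudocount of 1 FPKM, and the second ranged from 15 to 38 when a PN14 replicate was left out. The cause of these shifts was not tested. Without a PN14 replicate no residual degree of freedom is left, so the calls have no such alternative. No paired analysis was possible because only PN14 has a second replicate. Depth limits the members with a handful of counts after PN2, such as Retnlg, Stfa2l1, Gm5483 and Umodl1.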
